A study of Rattus norvegicus with 6 samples.

Results

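Heat shock proteins and chaperones are the proteins that help other proteins fold, and their transcripts were followed here across the 3 conditions of an RNA-seq study of cyclin Y (CCNY) in cultured rat hippocampal neurons. The members were taken by gene symbol alone: the HSP70 and HSP110 genes (Hspa and Hsph), the HSP90 genes, the small heat shock proteins (Hspb), the mitochondrial chaperonin (Hspd1 and Hspe1), the J-proteins (Dnaja, Dnajb and Dnajc), the cytosolic chaperonin ring (Tcp1 and Cct2 to Cct8, with the Cct symbols that begin alike) and the protein disulfide isomerases named Pdia. This rule found 84 of 17066 listed genes. The neurons came from the hippocampus of embryonic day 18 Sprague-Dawley rats, were infected with lentivirus at day 5 to 6 in vitro (DIV) and were harvested at DIV14. EGFP neurons received virus for EGFP alone, CCNY-WT neurons virus for CCNY joined to EGFP, and CCNY-shRNA neurons virus for EGFP with a short hairpin RNA against Ccny, so that all 3 conditions carried a virus and EGFP. None of the 6 libraries, 2 per condition, is labelled as a non-targeting hairpin, and the loss of Ccny and the presence of a hairpin cannot be told apart. Expression is given as FPKM, a count of sequenced fragments scaled to transcript length and to the mapped total of a library.

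Chaperones hold unfolded protein chains until they reach their shape. In the cytosol, HSP70 proteins bind short stretches of a chain under the control of J-proteins, which start their ATPase, and of exchange factors such as HSP110, and pass some clients on to HSP90 or to the CCT ring, which folds actin and tubulin. The endoplasmic reticulum (ER) has its own HSP70 (Hspa5, also called BiP), its own HSP90 (Hsp90b1) and the disulfide isomerases, whose genes answer to the unfolded protein response, and mitochondria have Hspa9 and the Hspd1 and Hspe1 chamber. The heat shock factor Hsf1 acts on cytosolic members through heat shock elements, repeats of the letters GAA and TTC. In neurons, chaperones are also part of the synaptic vesicle cycle, through Dnajc5 and Dnajc6.

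The sequences below show where the letters of the heat shock and ER stress elements lie in members whose values are given later, and come from RefSeq (GRCr8, a later build than the rn4 build of the expression values). A promoter was the 250 bases before and 50 bases after a gene's start, 66 of the 84 members had one, and both strands were searched in all 33469 promoters. A member was counted once if any of its promoters matched, whereas the 33469 promoters were counted singly. The shares of members and of promoters therefore differ in unit. The ER stress response element, CCAAT, 9 bases of any kind and CCACG, was found in 3 members (4.55%) against 0.0657% of all promoters. The 3 members were Hspa5, Hsp90b1 and Dnajc3, all of the ER. It is in capitals here, on the opposite strand for Hsp90b1, which has 2 matches and is shown with the one nearer its start:
Hspa5, chr3:38452958-38453006, plus strand: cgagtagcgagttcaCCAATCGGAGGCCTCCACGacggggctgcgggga
Hsp90b1, chr7:23012332-23012380, minus strand: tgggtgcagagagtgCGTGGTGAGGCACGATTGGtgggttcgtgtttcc
Dnajc3, chr15:102432519-102432567, plus strand: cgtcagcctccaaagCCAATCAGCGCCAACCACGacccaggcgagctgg

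CCAAT alone, which the longer element contains, was in 29 members (43.9%) and in 37.5% of all promoters. GAANNTTC was in 14 members (21.2%) against 8.59% of all promoters, and TTCNNGAA in 13 members (19.7%) against 8.77%. Elements of 3 half-sites in a row, TTCNNGAANNTTC or GAANNTTCNNGAA, which contain those pairs, were in 6 members (9.09%) against 0.798%: Cct4, Dnaja1, Hspa8, Hspd1, Hspe1 and Hsph1. These are cytosolic and mitochondrial genes, and none of the 6 is an ER gene. Capitals mark the element of 3 half-sites, or a run of them that overlap, in a cytosolic and in a mitochondrial member:
Hsph1, chr12:10427317-10427359, plus strand: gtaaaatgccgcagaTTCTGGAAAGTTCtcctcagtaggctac
Hspe1, chr9:64084247-64084294, plus strand: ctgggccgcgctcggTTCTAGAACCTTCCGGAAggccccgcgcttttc

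Hspd1 and Hspe1, the chamber and its lid, are read in opposite directions from starts 290 bases apart, so the capitals of Hspe1 also lie in the Hspd1 promoter. A match of letters is a description and does not show that a factor binds there.

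The level of Ccny followed the labels. It was 43.1 and 42.3 FPKM with EGFP, 108 and 109 with CCNY-WT and 5.98 and 6.19 with CCNY-shRNA. The difference from EGFP was -2.81 in CCNY-shRNA and 1.35 in CCNY-WT on the log2 scale. The 2 libraries of a condition are not said to come from separate cultures, so the p-values measure the spread between libraries, which may be technical. FPKM sums ran from 543567 to 645435, and CCNY-WT replicate 1 had the highest, of which the single gene Bc1 held 15.1%, while it was listed at 0 in the others. The files give no read totals; the steps between low values put the relative depths between 0.818 and 1.33 of EGFP replicate 1. Summed markers of neurons ran from 2407 to 2548 FPKM and those of astrocytes (5 of 6 listed) from 242 to 312 FPKM, with the lowest astrocyte sum in CCNY-shRNA replicate 1. Microglial markers were near 0 (0.407 to 1.16 FPKM), with Aif1 and Cx3cr1 at 0. The summed oligodendrocyte markers ran from 37.0 to 47.3 FPKM and mitotic ones from 2.95 to 4.14. Vascular and meningeal ones ran from 62.8 to 74.8, nearly all of it from Lum and Dcn. These were the only 2 of the 6 to reach 1 FPKM in any library. Pecam1, Pdgfrb and Col1a1 stayed under 1 FPKM throughout, and the endothelial Cldn5 was at 0. In such bulk libraries, fewer cells of a type and less RNA per cell cannot be told apart.

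The chaperones made up 1.53% and 1.55% of the summed FPKM in the EGFP libraries. Of the 84 members, 24 had a mean of 100 FPKM or more, 32 lay between 10 and 100 and 16 reached 1 FPKM in some library with a mean under 10. Another 7 stayed under 1 FPKM (Cct6b, Cct8l1, Dnajb7, Dnajc22, Hspb7, Hspb9 and Pdia5) and 5 were listed at 0 throughout (Dnajb8, Dnajc5b, Dnajc5g, Hspb3 and Pdia6). Pdia6 encodes a disulfide isomerase that most cells use, so its 0 may be a failed estimate and no more is read from it. The 71 members with at least 1 FPKM in 2 or more libraries entered the tests. By list, 33 of 37 cytosolic, 12 of 14 ER and 9 of 9 mitochondrial members were tested, beside 17 of 24 outside these lists.

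**Figure D1:**
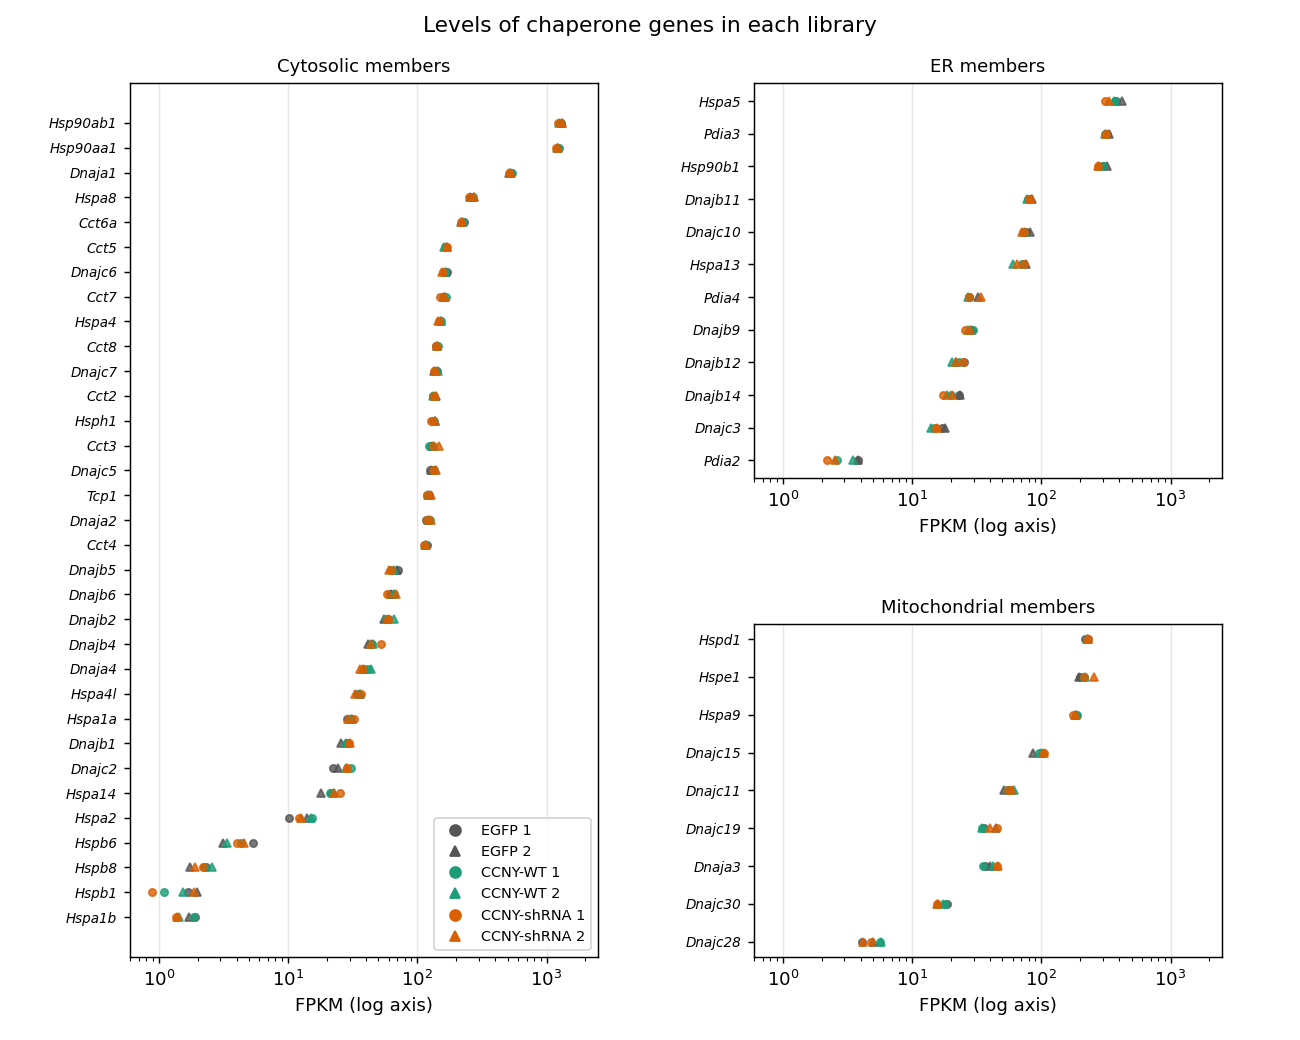
FPKM on a log axis (horizontal) of the 54 tested cytosolic, ER and mitochondrial chaperone genes (vertical, ordered by their EGFP mean) in the 6 libraries, by colour for the condition and by shape for the replicate. The points of the abundant genes lie nearly on top of each other, and those of Hspb1, Hspb6 and Pdia2, all under 6 FPKM, are spread the most.

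The chaperone transcripts stood at close levels in the 3 conditions. In the main fit of all 6 libraries, the ER chaperone Hspa5, lower in CCNY-shRNA, came nearest to a call. Under some of the alternatives given at the end, another member did. No member passed the threshold of 0.05 on the adjusted p (limma on log2 FPKM with values under 1 set to 1, adjusted over 10188 genes) in any comparison. The shares of all tested genes that did were 0.746% for CCNY-shRNA against EGFP, 0.00982% for CCNY-WT against EGFP and 0.216% for CCNY-shRNA against CCNY-WT. The smallest adjusted p of a member was 0.0832 for Hspa5 in CCNY-shRNA against EGFP, 0.630 for Dnajc2 in CCNY-WT against EGFP and 0.124 for Dnajc27 in CCNY-shRNA against CCNY-WT. At an unadjusted p under 0.05, 7 of 71 members were higher (9.86%, against 9.2% of all genes) and 6 lower (8.45%, against 9.36%) in CCNY-shRNA than in EGFP. In CCNY-WT against EGFP, 2 members were higher and 2 lower, each 2.82% of them, beside 3.83% and 3% of all genes. In CCNY-shRNA against CCNY-WT, 2 were higher (2.82%, against 5.05%) and 3 lower (4.23%, against 7.12%). The shares of members lay near those of all genes or below them.

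The 95% intervals give a range for the difference of each member. Like the p-values, they rest on the spread between libraries, which may be technical. Each interval stands for a single gene, so the counts below are not a joint bound on the set. In CCNY-shRNA against EGFP, the 95% interval lay within a 1.5-fold difference either way for 60 of 71 members and for all 56 members with a mean of 10 FPKM or more. It lay within 2-fold for 69 members, the exceptions being Hspb1 and Pdia2, both of low level. Of all tested genes, 74.2% lay within 1.5-fold and 94.4% within 2-fold, beside 84.5% and 97.2% of members. In CCNY-WT against EGFP, 59 members (83.1%) lay within 1.5-fold and 70 (98.6%) within 2-fold, all but Hspb1, beside 79.0% and 95.6% of all tested genes. In CCNY-shRNA against CCNY-WT, 58 members (81.7%) lay within 1.5-fold and all 71 within 2-fold, beside 76.1% and 94.8% of all tested genes. Among members of 100 FPKM or more, the median SD of log2 FPKM between replicates was 0.0366 over 24 genes, against 0.0637 over all 1127 tested genes of that level. Between 10 and 100 FPKM it was 0.0861 over 32 members and 0.0842 over all such genes, and between 1 and 10 FPKM it was 0.224 over 15 members and 0.185 over all such genes.

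The cytosolic HSP90 genes, Hsp90ab1 and Hsp90aa1, held the highest levels of the set. Hsp90ab1, the constitutive cytosolic form, ranked 21 and Hsp90aa1, the inducible form, 29 among all listed genes by EGFP mean. Hsp90ab1 was 1301 and 1323 FPKM with EGFP, 1276 and 1239.7 with CCNY-WT and 1234 and 1308 with CCNY-shRNA. Hsp90aa1 was 1216 and 1223 FPKM with EGFP, 1255 and 1196 with CCNY-WT and 1185 and 1224 with CCNY-shRNA. The conditions of Hsp90aa1 overlapped, and every CCNY-WT library of Hsp90ab1 lay below both EGFP libraries by a small margin. The log2 differences from EGFP were -0.046 (95% interval -0.21 to 0.12) in CCNY-shRNA and -0.061 (95% interval -0.22 to 0.10) in CCNY-WT for Hsp90ab1. For Hsp90aa1, they were -0.017 (95% interval -0.18 to 0.14) and 0.0071 (95% interval -0.15 to 0.17). Both genes, like Hspa8, have processed copies elsewhere in the genome, and the authors' assignment of reads among them cannot be checked from the table.

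Of the cytosolic HSP70 genes, Hspa8, the constitutive form that also strips clathrin from vesicles, was the most abundant. Hspa8 was 260.2 and 255 FPKM with EGFP, 269.7 and 274 with CCNY-WT and 253 and 274 with CCNY-shRNA. Its CCNY-WT libraries lay above both EGFP libraries, by 0.078 (95% interval -0.056 to 0.21), and its CCNY-shRNA libraries fell on both sides of them. The classic inducible gene Hspa1a was 28.7 and 31.1 FPKM with EGFP, 30.7 and 30.6 with CCNY-WT and 32.7 and 28.9 with CCNY-shRNA. Its conditions overlapped, with differences from EGFP of 0.042 (95% interval -0.15 to 0.23) in CCNY-shRNA and 0.037 (95% interval -0.16 to 0.23) in CCNY-WT. Hspa1b, its near-identical copy, was 1.92 and 1.71 FPKM with EGFP, 1.89 and 1.43 with CCNY-WT and 1.37 and 1.39 with CCNY-shRNA. Both CCNY-shRNA libraries of Hspa1b lay below both EGFP libraries (-0.39, 95% interval -0.90 to 0.11, adjusted p = 0.374 with limma), but reads of Hspa1a and Hspa1b can be assigned to either, and the level is close to the floor of 1. Hsph1, the HSP110 exchange factor, was 132 and 136 FPKM with EGFP, 134 and 137 with CCNY-WT and 127 and 137 with CCNY-shRNA. Its conditions overlapped in both comparisons with EGFP. Hspa2, an HSP70 gene best known from the testis, was 10.3 and 14.1 FPKM with EGFP, 15.3 and 15.2 with CCNY-WT and 12.1 and 12.6 with CCNY-shRNA. Both CCNY-WT libraries of Hspa2 lay above both EGFP libraries, by 0.34 (95% interval -0.0075 to 0.69) with an adjusted p of 0.731 (limma).

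The small heat shock proteins, which hold damaged proteins in a refoldable state, were the lowest class by symbol. The 4 tested Hspb genes had EGFP means between 1.83 and 6.84 FPKM, the highest for Hspb11 and the next, 4.27, for Hspb6. Cryab, a small heat shock protein outside the symbol rule, was 11.1 and 10.9 FPKM with EGFP, 12.5 and 10.1 with CCNY-WT and 8.68 and 8.31 with CCNY-shRNA. Its difference in CCNY-shRNA from EGFP was -0.37 (95% interval -0.68 to -0.064, adjusted p = 0.194, limma). Hspb1 (Hsp27) was 1.68 and 1.98 FPKM with EGFP, 1.09 and 1.55 with CCNY-WT and 0.881 and 1.87 with CCNY-shRNA. The lowest value was that of CCNY-shRNA replicate 1, under the floor of 1, and the difference of CCNY-shRNA from EGFP went from -0.42 to 0.037 without it. The difference of CCNY-WT from EGFP was -0.49 (95% interval -1.25 to 0.27, adjusted p = 0.813 with limma), and it was -0.24 without CCNY-WT replicate 1 and -0.74 without CCNY-WT replicate 2. Hspb11, which despite its symbol belongs to the intraflagellar transport machinery, was the 1 member above 5 FPKM whose replicates lay more than 2-fold apart. It was 4.48 and 9.21 FPKM with EGFP, 6.81 and 8.02 with CCNY-WT and 5.93 and 8.06 with CCNY-shRNA. The EGFP pair spanned all the other libraries.

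The 8 subunits of the CCT ring stand in equal numbers in the chaperonin, and their transcripts lay in a narrow band, with EGFP means from 118 to 224 FPKM. Tcp1, the alpha subunit, was 124 and 124 FPKM with EGFP, 119.6 and 121 with CCNY-WT and 119.8 and 127 with CCNY-shRNA. Cct2 was 132 and 139 FPKM with EGFP, 131 and 132 with CCNY-WT and 136 and 136 with CCNY-shRNA. Cct3 was 128 and 129 FPKM with EGFP, 124 and 135 with CCNY-WT and 131 and 149 with CCNY-shRNA. Cct2 overlapped with EGFP in both conditions, the CCNY-WT libraries of Tcp1 lay below EGFP, and the CCNY-shRNA libraries of Cct3 lay above it. Cct4 was 119.7 and 117 FPKM with EGFP, 115 and 114 with CCNY-WT and 113 and 116 with CCNY-shRNA. Cct5 was 167 and 170.0 FPKM with EGFP, 165 and 162 with CCNY-WT and 169 and 169 with CCNY-shRNA. Cct6a was 229 and 218 FPKM with EGFP, 225 and 227 with CCNY-WT and 219 and 223 with CCNY-shRNA. Cct4 was lower in both other conditions than in either EGFP library, Cct5 was lower in CCNY-WT, and Cct6a, the most abundant, overlapped with EGFP in both. Cct7 was 157 and 161 FPKM with EGFP, 166 and 165 with CCNY-WT and 150.2 and 162 with CCNY-shRNA. Cct8 was 140.4 and 141 FPKM with EGFP, 145 and 141 with CCNY-WT and 139.8 and 142 with CCNY-shRNA. The CCNY-WT libraries of Cct7 lay above the others, and those of Cct8 above EGFP. Over the 8 genes, the log2 differences from EGFP ran from -0.04 to 0.12 in CCNY-shRNA, with a median of -0.0030, and from -0.05 to 0.06 in CCNY-WT, with a median of -0.018. The medians over all 10188 genes were 0 and 0.0041. No subunit had an unadjusted p under 0.05 in any of the 3 comparisons, and the smallest adjusted p was 0.423, for Cct3 in CCNY-shRNA against EGFP (limma).

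Among the cytosolic J-proteins, Dnaja1 was the third most abundant member of the whole set, after Hsp90ab1 and Hsp90aa1. Dnaja1 was 533 and 510.3 FPKM with EGFP, 543.8 and 522 with CCNY-WT and 516 and 529.8 with CCNY-shRNA. Dnajb1, the J-protein induced with Hspa1a by heat, was 28.5 and 25.7 FPKM with EGFP, 28.5 and 28.2 with CCNY-WT and 29.7 and 29.998 with CCNY-shRNA. Dnaja4 was 38.9 and 38.02 FPKM with EGFP, 41.5 and 43.6 with CCNY-WT and 38.4 and 35.9 with CCNY-shRNA. The 3 genes differed in pattern: Dnaja1 overlapped, both CCNY-shRNA libraries of Dnajb1 lay above both EGFP libraries (0.14, 95% interval -0.036 to 0.32), and both CCNY-WT libraries of Dnaja4 lay above all others. The difference of Dnaja4 between CCNY-shRNA and CCNY-WT was -0.20 (95% interval -0.35 to -0.044), with an unadjusted p of 0.0182 and an adjusted p of 0.317 (limma). Dnajc5, the cysteine string protein of synaptic vesicles, was 126 and 129 FPKM with EGFP, 134 and 136 with CCNY-WT and 132 and 140.4 with CCNY-shRNA. Dnajc6, the neuronal auxilin that recruits Hspa8 to clathrin coats, was 169.6 and 166 FPKM with EGFP, 165 and 165 with CCNY-WT and 159 and 156 with CCNY-shRNA. The pair differed in direction: both other conditions lay above EGFP for Dnajc5, by 0.10 in CCNY-shRNA and 0.082 in CCNY-WT, and below it for Dnajc6, with log2 differences of -0.091 and -0.021. None of these 4 differences had an unadjusted p under 0.05.

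Dnajc2 and Hspa14 encode the partners that work at the ribosome on chains still being made, and Dnajc2 had the smallest adjusted p of the set in CCNY-WT against EGFP, for which it was named after its values were seen. Dnajc2 was 22.2 and 24.4 FPKM with EGFP, 30.5 and 27.9 with CCNY-WT and 28.8 and 28.8 with CCNY-shRNA. All 4 libraries with CCNY-WT or CCNY-shRNA lay above both EGFP libraries. The differences were 0.32 (95% interval 0.13 to 0.52) in CCNY-WT and 0.30 (95% interval 0.11 to 0.50) in CCNY-shRNA, with adjusted p of 0.630 and 0.121 (limma). Both rest on the same EGFP libraries. Hspa14 was 21.5 and 18.04 FPKM with EGFP, 21.00 and 22.5 with CCNY-WT and 25.3 and 22.8 with CCNY-shRNA, with a difference of 0.28 (95% interval 0.034 to 0.53) in CCNY-shRNA (adjusted p = 0.216, limma).

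The inducible cytosolic genes, together with the constitutive Hspa8, were also compared between the replicates of a condition. These 9 genes were Hspa1a, Hspa1b, Hspa8, Hsp90aa1, Hsph1, Hspb1, Dnajb1, Dnaja1 and Dnaja4. Their median log2 ratio of replicate 1 to replicate 2 was 0.031 for EGFP, 0.0018 for CCNY-WT and -0.038 for CCNY-shRNA. The medians over all tested genes were 0, 0 and 0.0027. The ratio farthest from 0 was that of Hspb1 in each condition, at -0.23 for EGFP, -0.50 for CCNY-WT and -0.90 for CCNY-shRNA, at a level near the floor. In CCNY-WT, Hspa1b also lay apart, at 0.40. The 5th and 95th percentiles over all tested genes were -0.37 and 0.36 for EGFP, -0.35 and 0.34 for CCNY-WT and -0.43 and 0.39 for CCNY-shRNA, so that Hspb1 in the last pair of conditions and Hspa1b in CCNY-WT lay outside them.

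Most members of the ER list lay lower than EGFP in both other conditions. The list was chosen with earlier results of these data known, so its counts are a description only. It leaves out Dnajc14, Dnajc16, Dnajc18 and Dnajc25, which are given with the remaining members below. In CCNY-shRNA, 11 of 12 tested ER members were lower than in EGFP, with a median log2 difference of -0.11, and 8 had both libraries below both EGFP libraries. In CCNY-WT, 12 of 12 were lower, with a median of -0.12, and 9 had both libraries below. The background for such separation was 24.3% of all tested genes lower and 23.7% higher in CCNY-shRNA, and 19% lower and 20.2% higher in CCNY-WT. Over all tested genes, 49.8% and 48.7% lay lower than in EGFP, and the medians were 0 and 0.0041. At an unadjusted p under 0.05, 4 ER members were lower in CCNY-shRNA (Hspa5, Hsp90b1, Pdia2 and Dnajb14) and 2 in CCNY-WT (Dnajc3 and Dnajb14), and none was higher. The shares of all tested genes that were lower at this p were 9.36% and 3%. No ER member passed the adjusted threshold. Both counts rest on the same 2 EGFP libraries. In CCNY-shRNA against CCNY-WT, which does not use them, 6 of 12 were lower and the median was 0.0065.

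Set against the mean of the EGFP pair, the median over the 12 ER members was -0.04 in EGFP replicate 1 and 0.04 in EGFP replicate 2. For CCNY-WT it was -0.09 in replicate 1 and -0.14 in replicate 2, and for CCNY-shRNA -0.14 and -0.16. The 4 other libraries thus lay below both EGFP libraries, CCNY-WT replicate 1 by the least. Without EGFP replicate 2, the median difference of CCNY-WT was -0.063, and that of CCNY-shRNA was -0.11. Without EGFP replicate 1, the medians were -0.19 and -0.15. Without CCNY-shRNA replicate 1, the library with the lowest astrocyte marker sum, the median of CCNY-shRNA was -0.16.

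**Figure D2:**
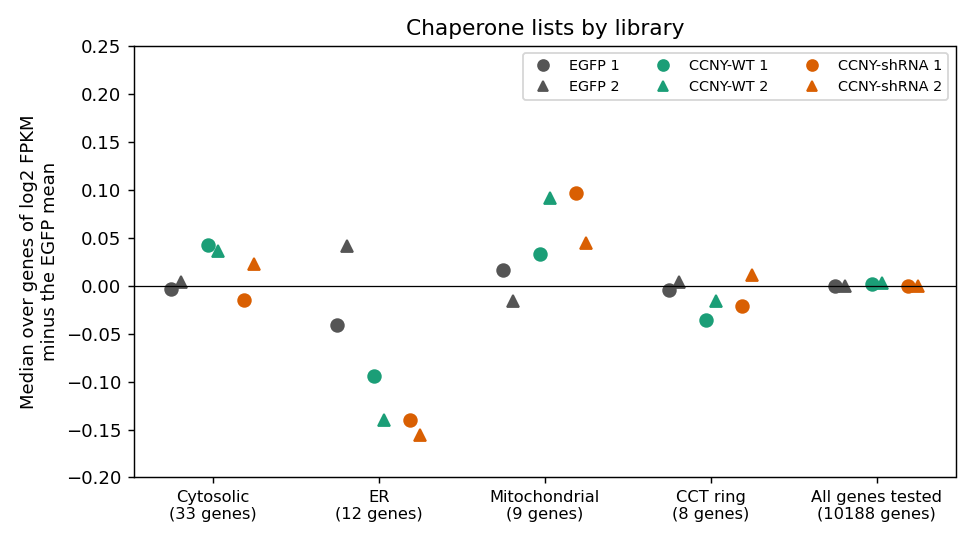
Median over the genes of each list (horizontal axis, with the number of genes) of log2 FPKM minus the mean of the 2 EGFP libraries (vertical axis), 1 point per library. The ER points of CCNY-WT and CCNY-shRNA lie between -0.09 and -0.16, below both EGFP points, while the CCT ring stays within 0.04 of zero.

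Hspa5, the ER HSP70 and the protein that keeps the sensors of the unfolded protein response inactive, came nearest to the threshold in the main fit. Hspa5 was 380.1 and 423 FPKM with EGFP, 375 and 362 with CCNY-WT and 312 and 334 with CCNY-shRNA. The CCNY-shRNA libraries lay below all others, and the CCNY-WT libraries between them and EGFP. The difference from EGFP was -0.31 (SE 0.070, 95% interval -0.47 to -0.15) in CCNY-shRNA, or -19.5%, with an unadjusted p of 0.00218 and an adjusted p of 0.0832 (limma). Between CCNY-shRNA and CCNY-WT it was -0.19 (95% interval -0.35 to -0.029, adjusted p = 0.343, limma), and between CCNY-WT and EGFP -0.12 (95% interval -0.28 to 0.040). The last went to -0.045 without EGFP replicate 2 and -0.20 without EGFP replicate 1. Its adjusted p in CCNY-shRNA against EGFP ran from 0.0742 to 0.396 over the alternatives, the last without EGFP replicate 2.

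Hsp90b1, the ER HSP90, was 301 and 325 FPKM with EGFP, 298 and 278 with CCNY-WT and 273 and 273 with CCNY-shRNA. The order of conditions was that of Hspa5, with both CCNY-shRNA libraries lowest and a difference from EGFP of -0.20 (95% interval -0.34 to -0.053, adjusted p = 0.157, limma). Dnajc3, a J-protein of the ER lumen that also restrains the kinase Eif2ak3, was 16.9 and 17.9 FPKM with EGFP, 14.9 and 13.96 with CCNY-WT and 15.5 and 15.7 with CCNY-shRNA. Here the CCNY-WT libraries were lowest: the difference from EGFP was -0.27 (95% interval -0.49 to -0.062) in CCNY-WT (adjusted p = 0.725, limma) and -0.16 (95% interval -0.38 to 0.048) in CCNY-shRNA. These 3 genes carry the ER stress response element printed above. Among the 15 tested genes of the whole table with that element, members included, 11 lay lower than EGFP in CCNY-shRNA (median -0.13) and 8 in CCNY-WT (median -0.0060). Of all tested genes, 49.8% and 48.7% lay lower. In CCNY-shRNA against CCNY-WT, 11 of the 15 were lower (median -0.079), beside 49.5% of all tested genes. The 15 include Hspa5, Hsp90b1, Dnajc3, Canx and Xbp1, so these counts are not separate from the values of those genes.

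Dnajb9 and Dnajb11, also J-proteins of the ER lumen, differed less. Dnajb9 was 28.9 and 28.8 FPKM with EGFP, 29.9 and 27.3 with CCNY-WT and 25.8 and 28.3 with CCNY-shRNA. Dnajb11 was 79.2 and 85.2 FPKM with EGFP, 80.7 and 77.9 with CCNY-WT and 79.97 and 82.6 with CCNY-shRNA. The CCNY-shRNA libraries of Dnajb9 lay below EGFP (-0.094, 95% interval -0.28 to 0.092), and Dnajb11 overlapped in both comparisons. Dnajc10 was 76.8 and 81.8 FPKM with EGFP, 72.6 and 74.7 with CCNY-WT and 73.9 and 71.1 with CCNY-shRNA. Both other conditions of Dnajc10 lay below EGFP, with a log2 difference of -0.13 (95% interval -0.26 to 0.0051) in CCNY-shRNA. Dnajb14, which sits in the ER membrane, was 23.1 and 23.4 FPKM with EGFP, 19.9 and 18.7 with CCNY-WT and 17.3 and 20.5 with CCNY-shRNA. Both other conditions of Dnajb14 lay below EGFP, with log2 differences of -0.31 (95% interval -0.54 to -0.072) in CCNY-shRNA and -0.27 (95% interval -0.50 to -0.038) in CCNY-WT, with adjusted p of 0.172 and 0.725 (limma).

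The disulfide isomerases form and reshuffle the disulfide bonds of secreted proteins. Pdia3, which works on glycoproteins with calnexin and calreticulin, was 321 and 336 FPKM with EGFP, 309 and 311 with CCNY-WT and 319.5 and 317 with CCNY-shRNA. Pdia4 was 27.8 and 32.2 FPKM with EGFP, 27.5 and 27.3 with CCNY-WT and 27.5 and 33.9 with CCNY-shRNA. Pdia3 lay below EGFP in both conditions by less than 0.1 (log2), and Pdia4 overlapped with EGFP in CCNY-shRNA and lay below it in CCNY-WT (-0.13, 95% interval -0.39 to 0.13). Pdia2, a form best known from the pancreas, was 3.84 and 3.83 FPKM with EGFP, 2.65 and 3.51 with CCNY-WT and 2.21 and 2.55 with CCNY-shRNA. Pdia2 had the largest difference of any member in CCNY-shRNA against EGFP, -0.69 (95% interval -1.15 to -0.24), with an unadjusted p of 0.00825 and an adjusted p of 0.132 (limma), at a level of 2 to 4 FPKM. In CCNY-WT its difference was -0.33 (95% interval -0.79 to 0.13), and from CCNY-WT to CCNY-shRNA -0.36 (95% interval -0.82 to 0.10).

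**Figure D3:**
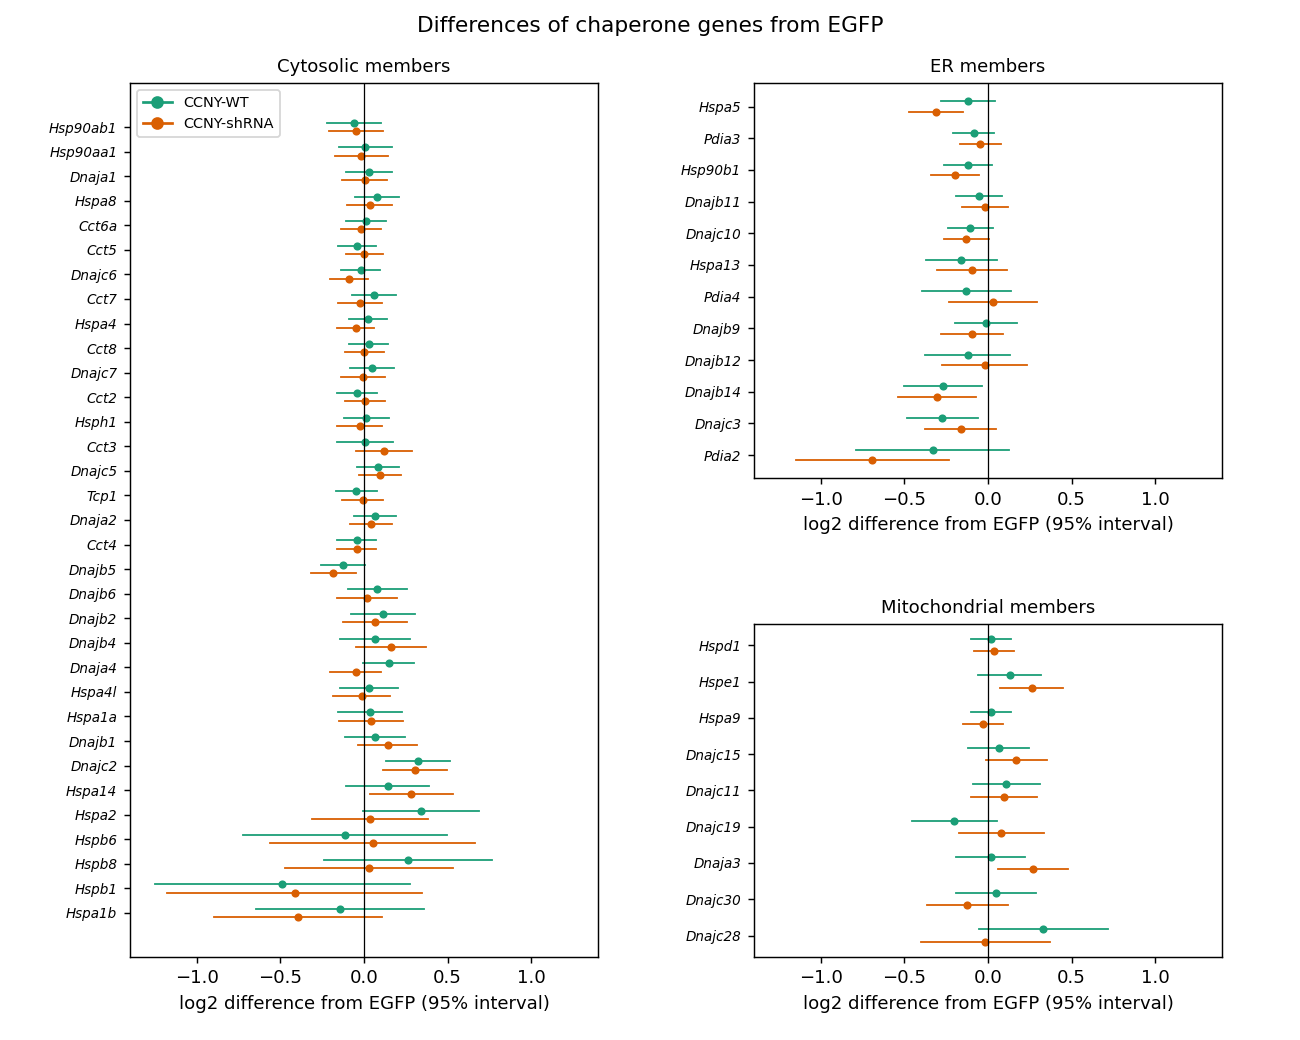
The log2 difference from EGFP (horizontal axis; points) with its 95% interval (lines) for the 54 tested cytosolic, ER and mitochondrial genes (vertical axis, ordered by EGFP mean), CCNY-WT and CCNY-shRNA in 2 colours. All 12 ER points of CCNY-WT and 11 of 12 of CCNY-shRNA lie left of 0, whereas the cytosolic points fall on both sides.

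The cytosolic and mitochondrial lists, too, do not hold every gene of their compartment, and the members left out are described below. Of the 33 tested members of the cytosolic list, 15 were lower and 18 higher in CCNY-shRNA (median difference from EGFP 0.0028). In CCNY-WT, 10 were lower and 23 higher, with a median of 0.029. The lower share in CCNY-WT was 30.3%, beside 48.7% of all tested genes. Both medians moved with single libraries: the first was 0.023 without CCNY-shRNA replicate 1 and -0.015 without CCNY-shRNA replicate 2, and the second was 0.013 without EGFP replicate 2. At an unadjusted p under 0.05, Dnajc2 and Hspa14 were higher and Dnajb5 lower in CCNY-shRNA, and Dnajc2 was higher in CCNY-WT. In CCNY-shRNA against CCNY-WT, 20 of 33 were lower, with a median of -0.024 that was -0.0085 without CCNY-shRNA replicate 1 and -0.046 without CCNY-shRNA replicate 2. The summed FPKM of the cytosolic members ran from 5631 to 5840 over the 6 libraries, that of the ER members from 1244 to 1456 and that of the mitochondrial members from 848 to 945. In the ER sum, both EGFP libraries were the highest.

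Of the mitochondrial members, 6 of 9 were higher than EGFP in CCNY-shRNA, with a median difference of 0.080, and 3 had both libraries above both EGFP libraries, a separation that 23.7% of all tested genes showed. In CCNY-WT, 8 of 9 were higher, with a median of 0.046, and 2 had both libraries above, beside 20.2% of all tested genes. Without EGFP replicate 1, the median went from 0.080 to 0.0065 in CCNY-shRNA and from 0.046 to 0.15 in CCNY-WT, so that its size rests on single libraries. It was 0.044 in CCNY-shRNA without replicate 1 of that condition and 0.092 in CCNY-WT without its replicate 1. Hspd1, the chamber that encloses a folding protein, was 219.5 and 229 FPKM with EGFP, 229 and 224 with CCNY-WT and 228 and 231 with CCNY-shRNA. Hspe1, its lid, was 199 and 194 FPKM with EGFP, 214 and 216 with CCNY-WT and 215 and 258 with CCNY-shRNA. Hspd1 overlapped in both comparisons, whereas all 4 other libraries of Hspe1 lay above both EGFP libraries and CCNY-shRNA replicate 2 stood highest. The difference of Hspe1 was 0.26 (95% interval 0.071 to 0.45) in CCNY-shRNA (adjusted p = 0.155, limma) and 0.13 (95% interval -0.061 to 0.32) in CCNY-WT. The 2 genes lie head to head, and the interval of Hspd1 in CCNY-shRNA was -0.083 to 0.16, which overlaps that of Hspe1. The difference between the genes was not tested.

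Hspa9, the mitochondrial HSP70 that pulls in imported chains, was 187 and 183 FPKM with EGFP, 187 and 187 with CCNY-WT and 177 and 185 with CCNY-shRNA. It overlapped with EGFP in both conditions. Dnaja3, the J-protein partner of Hspa9 in the matrix, was 36.7 and 39.9 FPKM with EGFP, 35.7 and 42.01 with CCNY-WT and 45.6 and 46.6 with CCNY-shRNA. Both CCNY-shRNA libraries of Dnaja3 lay above the 4 others, by 0.27 (95% interval 0.063 to 0.48) against EGFP and 0.25 (95% interval 0.046 to 0.46) against CCNY-WT, with adjusted p of 0.173 and 0.332 (limma). Dnajc19, a part of the import motor, was 36.05 and 45.04 FPKM with EGFP, 35.00 and 35.04 with CCNY-WT and 45.3 and 40.03 with CCNY-shRNA. Dnajc28 was 4.11 and 5.02 FPKM with EGFP, 5.70 and 5.73 with CCNY-WT and 4.86 and 4.16 with CCNY-shRNA. The CCNY-WT libraries of Dnajc19 were lowest and those of Dnajc28 highest. The differences between CCNY-shRNA and CCNY-WT were 0.28 (95% interval 0.027 to 0.54) for Dnajc19 and -0.35 (95% interval -0.73 to 0.040) for Dnajc28 (adjusted p = 0.372 and 0.465, limma).

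**Figure D4:**
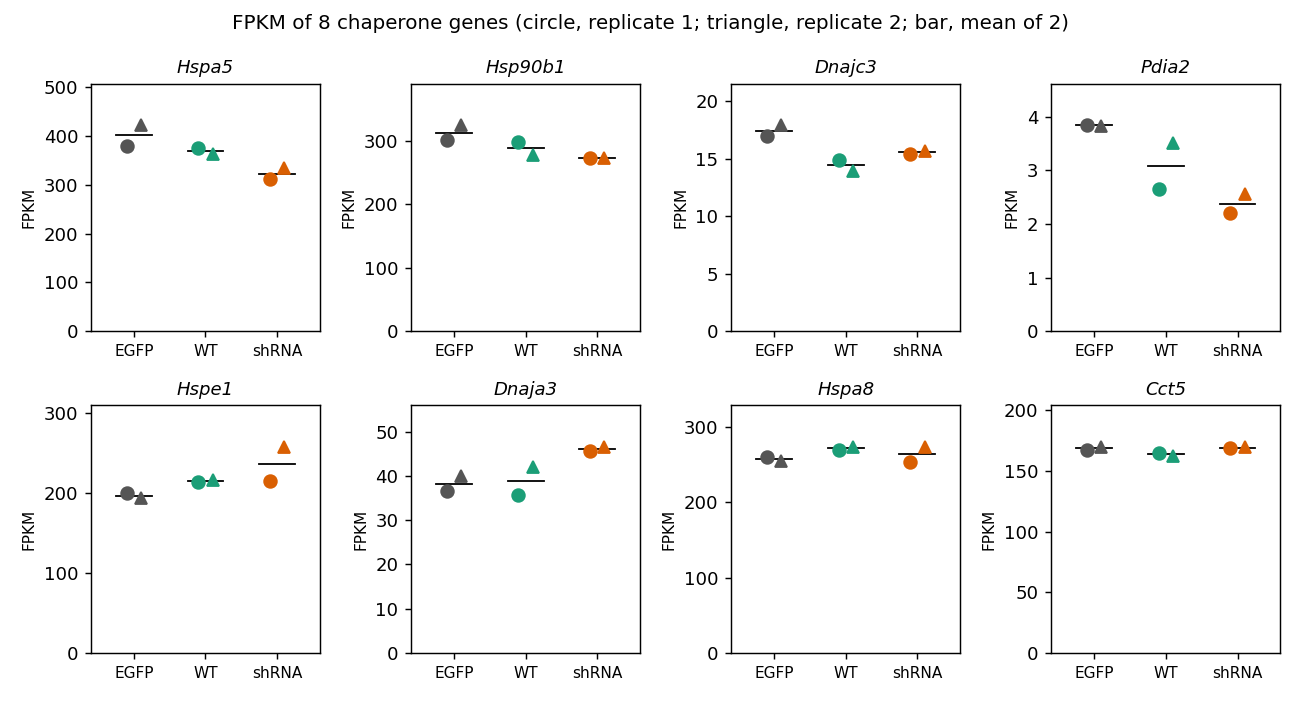
FPKM (vertical axes, from 0) of 8 chaperone genes in EGFP, CCNY-WT and CCNY-shRNA, with circles for replicate 1, triangles for replicate 2 and bars for the mean of 2 libraries. Hspa5 and Hsp90b1 are lowest and Dnaja3 highest in CCNY-shRNA, Dnajc3 is lowest in CCNY-WT, and Hspa8 and Cct5 lie nearly level; the genes were picked for display with their values known.

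The remaining members, mostly J-proteins, were left out of the 3 compartment lists, which do not hold every gene of a compartment. Dnajc14, Dnajc16, Dnajc18 and Dnajc25 have been placed at the ER but were not in the ER list. In CCNY-shRNA, Dnajc16 (0.20) and Dnajc14 (0.087) were higher than in EGFP, and Dnajc25 (-0.088) and Dnajc18 (-0.0094) lower. In CCNY-WT, the mean of Dnajc16 was higher (22.5 FPKM against 21.9 with EGFP), and those of Dnajc14, Dnajc18 and Dnajc25 were lower. Of the 17 tested genes left out of the lists, 11 were higher and 6 lower in CCNY-shRNA than in EGFP (median 0.10). In CCNY-WT, 13 of them were higher and 4 lower (median 0.095). Dnajc27, a small GTPase with a J domain, was 41.1 and 40.5 FPKM with EGFP, 43.7 and 46.3 with CCNY-WT and 35.01 and 36.8 with CCNY-shRNA. Its CCNY-WT libraries lay above and its CCNY-shRNA libraries below EGFP, and the difference between them was -0.33 (95% interval -0.47 to -0.18, unadjusted p = 0.00110, adjusted p = 0.124, limma), the smallest p of any member in that comparison, for which it was named after its values were seen. Dnajc17, a nuclear splicing factor, was 4.95 and 6.80 FPKM with EGFP, 6.09 and 6.64 with CCNY-WT and 7.82 and 8.22 with CCNY-shRNA. Dnajc12, which assists the aromatic amino acid hydroxylases, was 6.11 and 6.23 FPKM with EGFP, 6.86 and 6.74 with CCNY-WT and 8.32 and 7.55 with CCNY-shRNA. Both were highest in CCNY-shRNA, by 0.47 (95% interval 0.063 to 0.87) and 0.36 (95% interval 0.065 to 0.66) against EGFP (adjusted p = 0.209 and 0.192, limma).

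Dnajc4 was 7.29 and 9.70 FPKM with EGFP, 8.36 and 8.77 with CCNY-WT and 5.67 and 7.65 with CCNY-shRNA. Its CCNY-shRNA libraries lay below those of CCNY-WT (-0.38, 95% interval -0.82 to 0.066) and overlapped with EGFP. Dnajb3 and Dnajb13, both best known from the male germ line, were at a few FPKM or less. Dnajb3 was 2.45 and 2.43 FPKM with EGFP, 2.62 and 3.72 with CCNY-WT and 3.49 and 3.00 with CCNY-shRNA. Dnajb13 was 1.30 and 0.965 FPKM with EGFP, 1.47 and 1.48 with CCNY-WT and 1.19 and 1.62 with CCNY-shRNA. Both were higher in both CCNY-WT libraries than in either EGFP library, by 0.36 (95% interval -0.13 to 0.85) and 0.37 (95% interval -0.20 to 0.93), with adjusted p of 0.801 and 0.813 (limma). Both CCNY-shRNA libraries of Dnajb3 also lay above EGFP, by 0.41 (95% interval -0.084 to 0.90) with an adjusted p of 0.349 (limma). These values are on a scale where the floor of 1 limits the difference that low values can show.

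By the fold limits of the study's methods, with no test, 3 members were higher (3.57%, against 3.34% of all listed genes) and 4 lower (4.76%, against 4.58%) in CCNY-shRNA than in EGFP by more than 0.33 on the log2 scale. In CCNY-WT, 6 members were higher (7.14%, against 2.8%) and 3 lower (3.57%, against 2.31%) by more than 0.3, and the 6 became 3 with log2(FPKM + 1) and 10 with log2(FPKM + 0.1). Genes under 1 FPKM throughout cannot pass after the floor. Only 10188 of 17066 listed genes were tested, against 71 of 84 members, so these shares are not on like terms. Hspb2, not tested, is among the 6 through 1 library: it was 0.473 and 0 FPKM with EGFP and 0.720 and 1.52 with CCNY-WT. Leaving out 1 library moved the 3 higher members of CCNY-shRNA to 5 (without EGFP replicate 1) and 7 (without EGFP replicate 2), its 4 lower ones to 2 (without CCNY-shRNA replicate 1) and the 3 lower members of CCNY-WT to 5 (without EGFP replicate 1). By separation, 16 of 71 members had both CCNY-shRNA libraries above both EGFP libraries (22.5%, against 23.7%) and 17 below (23.9%, against 24.3%). In CCNY-WT, 19 lay above (26.8%, against 20.2%) and 18 below (25.4%, against 19%).

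The co-chaperones and regulators outside the rule, 62 genes of which 54 were tested, also had none past the adjusted threshold in the 3 comparisons (limma). At an unadjusted p under 0.05, 9 were higher (16.7%, against 9.2% of all tested genes) and 6 lower (11.1%, against 9.36%) in CCNY-shRNA than in EGFP. The 9 included 6 of 21 cytosolic co-chaperones (28.6%) and 2 of 4 prefoldin genes (50%). The 6 included 4 of 11 ER folding genes (36.4%) and 1 cytosolic co-chaperone (4.76%). Of 8 unfolded protein response genes, 1 was higher and 1 lower. In CCNY-WT, 3 of the 54 genes were higher than in EGFP (5.56%, against 3.83%) and 1 lower (1.85%, against 3%). In CCNY-shRNA against CCNY-WT, 5 were higher and 5 lower, each 9.26%, beside 5.05% and 7.12% of all tested genes. Over all tested genes, 49.8% lay lower than EGFP in CCNY-shRNA and 48.7% in CCNY-WT, whatever their p. Of 11 tested ER folding genes, 9 were lower than EGFP in CCNY-shRNA (median -0.14) and 9 in CCNY-WT (median -0.10), again against the same EGFP libraries. The unfolded protein response genes were lower for 5 of 8 in CCNY-shRNA (median -0.087) and 4 of 8 in CCNY-WT (median -0.0041), and the mitochondrial folding genes for 5 of 7 (median -0.053) and 3 of 7 (median 0.028). Of 21 cytosolic co-chaperones, 5 were lower in either condition, with medians of 0.11 in CCNY-shRNA and 0.051 in CCNY-WT. The prefoldin genes were lower for 0 of 4 (median 0.16) and 2 of 4 (median 0.028), and the heat shock factors and their regulators for 1 of 3 (median 0.13) and 0 of 3 (median 0.077). Canx, calnexin, was 397 and 421 FPKM with EGFP, 395 and 375 with CCNY-WT and 324 and 320.1 with CCNY-shRNA. Its CCNY-shRNA libraries lay below all others, with a difference from EGFP of -0.34 (95% interval -0.48 to -0.21, adjusted p = 0.0521, limma). Canx was named after its values were seen, as was Ptges3, the HSP90 co-chaperone p23. Ptges3 was 189 and 186 FPKM with EGFP, 202 and 216 with CCNY-WT and 235 and 229.8 with CCNY-shRNA. It lay higher in both other conditions than in EGFP, by 0.31 (95% interval 0.18 to 0.44) in CCNY-shRNA (adjusted p = 0.0543, limma).

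Of the regulators, Hsf1, the heat shock factor, was 9.77 and 10.7 FPKM with EGFP, 9.98 and 11.998 with CCNY-WT and 11.1 and 11.3 with CCNY-shRNA. Xbp1, a transcription factor of the unfolded protein response, was 73.2 and 74.7 FPKM with EGFP, 71.6 and 70.6 with CCNY-WT and 68.3 and 66.6 with CCNY-shRNA. Atf4, the factor translated when eIF2 alpha is phosphorylated, was 416 and 376 FPKM with EGFP, 402 and 434 with CCNY-WT and 437 and 487 with CCNY-shRNA. Both CCNY-shRNA libraries of Hsf1 lay above EGFP (0.13, 95% interval -0.17 to 0.42), those of Xbp1 below it (-0.13, 95% interval -0.26 to -0.012) and those of Atf4 above it (0.22, 95% interval 0.037 to 0.41). Their adjusted p were 0.640, 0.231 and 0.196 (limma). Ddit3, the stress gene also called CHOP, was 43.1 and 28.3 FPKM with EGFP, 40.3 and 36.7 with CCNY-WT and 31.7 and 39.6 with CCNY-shRNA. Its EGFP replicates spanned all the other libraries.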

How the data were processed

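The authors sequenced poly-A RNA of 6 libraries as paired reads from a TruSeq kit, mapped it to the rn4 rat genome and deposited FPKM values per gene, as they were calculated with Cufflinks. The submitters' processing notes name TopHat2 2.0, Bowtie2 2.1.0, SAMtools 0.1.19, Cufflinks 2.2.1 and R 3.1.0. FPKM values keep no read totals, so the depth is unknown and no counting interval is given. Values under 1 were set to 1 and log2-transformed, genes that reached 1 FPKM in 2 or more libraries were kept, and 1 limma 3.58.1 model (R 4.3.3, trended empirical Bayes) over all 6 libraries gave 3 contrasts, adjusted by Benjamini-Hochberg over 10188 genes. The script was tested on simulated data. Compartment lists, gene lists and members were chosen with earlier results of these data known. Full values are given for Ccny, the 10 most abundant members in EGFP, well-known members of each class, the 3 largest separated differences each way per contrast, members above 5 FPKM with replicates over 2-fold apart, and Hsf1, Xbp1, Ddit3 and Atf4. Those of Dnajb14, Dnajc10, Hspa14, Dnajc2, Dnajc27, Canx, Ptges3 and Cryab were added outside these rules, with their values known. Of the members, 13 were not tested: the 5 listed at 0, the 7 under 1 FPKM, and Hspb2, at 1 FPKM or more in 1 library. A low value understates the log2 difference because of the floor.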

Additional observations from a re-analysis of the deposited data

How the results depend on the processing

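With 2 libraries per condition and no read totals, precision was limited by the spread between libraries. No member was called in any of the 3 comparisons under any of 15 alternatives, and the smallest adjusted p of a member ran from 0.0742 to 0.350 in CCNY-shRNA against EGFP, from 0.540 to 1 in CCNY-WT against EGFP and from 0.122 to 0.610 in CCNY-shRNA against CCNY-WT (limma). Where a library was left out, the lone library of that condition was assumed to vary like the others. The member nearest to a call in CCNY-shRNA against EGFP was not always Hspa5. It was Dnajb5 with no filter, Dnajc12 without trend, and Pdia2 with only the compared conditions or without either CCNY-WT library. It was Hspe1 without CCNY-shRNA replicate 1 and Dnajc17 without EGFP replicate 2. The replicate numbers mark no shared culture in the labels: deviations of same-numbered libraries correlated at 0.137, 0.144 and -0.029 over 8055 genes. With a replicate block, 0 members were called in each comparison, and the calls over all genes went from 76 to 39, from 1 to 1 and from 22 to 18. Over all alternatives, the calls over all genes ran from 1 (trend left out, only the compared conditions, or without either CCNY-WT or either EGFP library) to 108 (filter on mean FPKM) in CCNY-shRNA against EGFP, from 0 to 3 in CCNY-WT against EGFP and from 1 to 32 in CCNY-shRNA against CCNY-WT.

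Of the counts past the fold limit in CCNY-WT, 6 higher members became 3 with log2(FPKM + 1), 10 with log2(FPKM + 0.1) and 0 at a limit of 1, and 3 lower ones became 1 with log2(FPKM + 1) and 0 at a limit of 1. For CCNY-shRNA, 3 higher members became 6 with log2(FPKM + 0.1) and 0 at a limit of 1, and 4 lower ones became 2 with log2(FPKM + 1) and 0 at a limit of 1. Leaving out 1 library gave 4 (without CCNY-WT replicate 2) to 8 (without CCNY-WT replicate 1) higher and 2 (without CCNY-WT replicate 2) to 5 (without EGFP replicate 1) lower members in CCNY-WT, and 3 (without CCNY-shRNA replicate 1) to 7 (without EGFP replicate 2) higher and 2 (without CCNY-shRNA replicate 1) to 6 (without CCNY-shRNA replicate 2) lower members in CCNY-shRNA.

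The cytosolic median of CCNY-shRNA against EGFP was 0.022 with upper quartile scaling and -0.025 with quantile normalization, that of CCNY-WT was 0.0081 with quantile normalization, and the inducible ratio of CCNY-shRNA was 0.012 there. Leaving out 1 library, the cytosolic medians ran from -0.015 (without CCNY-shRNA replicate 2) to 0.023 (without CCNY-shRNA replicate 1) in CCNY-shRNA against EGFP and, without the same libraries, from -0.046 to -0.0085 in CCNY-shRNA against CCNY-WT. The ER medians ran from -0.16 (without CCNY-shRNA replicate 1) to -0.11 (without EGFP replicate 2) in CCNY-shRNA against EGFP, and from -0.19 (without EGFP replicate 1) to -0.063 (without EGFP replicate 2) in CCNY-WT against EGFP. The mitochondrial medians ran from 0.0065 (without EGFP replicate 1) to 0.096 (without CCNY-shRNA replicate 2) in CCNY-shRNA against EGFP, from 0.033 (without CCNY-WT replicate 2) to 0.15 (without EGFP replicate 1) in CCNY-WT against EGFP, and from 0.0018 (without CCNY-shRNA replicate 2) to 0.083 (without CCNY-WT replicate 2) in CCNY-shRNA against CCNY-WT. Hspb1 in CCNY-shRNA against EGFP was 0.037 without CCNY-shRNA replicate 1 and -0.87 without CCNY-shRNA replicate 2, in place of -0.42. Without the same libraries, its difference between CCNY-shRNA and CCNY-WT was 0.53 and -0.38, in place of 0.074. It was also -0.18 without CCNY-WT replicate 1. The cause of these shifts was not tested.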
